A study of Mus musculus with 2 samples.

Results

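The cells described here are colonic fibroblasts of the mouse that carried RNA of both Edil3 (ENSMUSG00000034488), a secreted matrix protein that binds integrins, and Frmpd4 (ENSMUSG00000049176), a scaffold protein best known from synapses. A barcode was taken when it had at least 500 genes, at most 10% mitochondrial UMIs, at least 1 UMI (unique molecular identifier, 1 counted RNA molecule) of each of the 2 genes and at least 10 UMIs over Col1a1, Col1a2 and Col3a1. It was left out when it had 3 or more UMIs of the chemokine gene Cxcl13, or at least 2 of the genes Cd36, Hcar2, Agt and Tbxas1. This left 2450 fibroblasts of 20007 deposited barcodes, called members below, 1734 from the control library and 716 from the Cre library. The remaining cells that passed the collagen condition, 7288 and 5163, served for comparison. All of these conditions were set on measured values, so the levels of the rule genes, and of every gene between members and other cells, are descriptions.

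The study compared colonic stroma of 6-month-old mice with floxed Il10ra alleles (Il10ra_ff, control) with that of mice that had the same floxed alleles and Pdgfra-driven Cre (Il10ra_ff_Pdgfra_cre, Cre). Its title concerns restraint of type I interferon signalling by IL-10 receptor on fibroblasts. Living stromal cells were sorted from whole colons as Podoplanin+ and CD45-, CD31- and EpCAM-, from 2 mice per genotype, and gave 1 library each by 10x 5' sequencing. Pdgfra is expressed by most fibroblasts, so the Cre was not restricted to the cells described here. Each genotype was sequenced as a single library, so genotypes were compared without a test, and cells were not assigned to mice here. All intervals given below are 95% intervals that cover counting error only, and whether any difference would recur in other mice was not tested.

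Fibroblasts of the intestinal lamina propria lie between the crypts, make the collagen network of the mucosa, and supply ligands and antagonists of the WNT and BMP pathways to the epithelium. IL-10 is a cytokine that restrains inflammation by way of a receptor made of Il10ra and Il10rb chains, which signals through STAT3. Type I interferons act through a complex that includes IRF9 and binds interferon-stimulated response elements in promoters, whereas interferon gamma has a receptor of its own and induces guanylate-binding proteins and antigen presentation. The groups of genes induced by the 2 kinds of interferon overlap widely.

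The DNA in front of 3 genes, 1 from each of the type I interferon, interferon gamma and MHC class I lists described below, is shown to place the interferon motif. Only genes with a match could be shown in this way, so the 3 do not stand for their lists. The windows are the 250 bases before the RefSeq start of each gene, written 5′ to 3′ on the gene's strand, and capitals mark matches on either strand to GAAA, any 2 bases and GAAA again, the core of the interferon-stimulated response element. Isg15 encodes a ubiquitin-like protein, Gbp5 a guanylate-binding protein and B2m the light chain of MHC class I.
Isg15, chr4:156200819-156201068, minus strand, GRCm38.p6: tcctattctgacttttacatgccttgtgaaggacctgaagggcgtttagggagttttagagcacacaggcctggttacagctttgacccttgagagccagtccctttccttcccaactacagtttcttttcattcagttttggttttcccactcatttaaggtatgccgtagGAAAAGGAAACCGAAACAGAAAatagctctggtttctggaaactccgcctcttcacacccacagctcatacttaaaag
Gbp5, chr3:142496684-142496933, plus strand, GRCm38.p6: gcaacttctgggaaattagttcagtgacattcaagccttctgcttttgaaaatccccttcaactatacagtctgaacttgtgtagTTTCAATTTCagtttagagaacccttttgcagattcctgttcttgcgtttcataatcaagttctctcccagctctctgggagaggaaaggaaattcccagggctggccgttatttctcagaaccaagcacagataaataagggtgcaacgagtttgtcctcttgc
B2m, chr2:122147437-122147686, plus strand, GRCm38.p6: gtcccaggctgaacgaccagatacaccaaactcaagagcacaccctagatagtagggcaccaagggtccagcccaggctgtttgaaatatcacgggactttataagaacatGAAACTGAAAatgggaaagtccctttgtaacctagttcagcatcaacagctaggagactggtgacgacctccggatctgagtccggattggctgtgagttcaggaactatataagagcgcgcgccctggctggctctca
In Isg15, 3 overlapping matches form 1 run of 22 bases, from 78 to 57 bases before the start. The single match of Gbp5 lies 165 to 156 bases before its start and, as the capitals on the printed strand read in reverse, on the opposite strand. That of B2m lies 139 to 130 bases before its start.

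Over all promoter windows of 300 bases (250 before and 50 after the start), 1079 of 27025 symbols held the motif, or 3.99%. Among measured genes of the MHC class I and peptide loading list, 17 of 21 had a window and 5 of these held it, or 29.4%. Of the type I interferon list only 34 of 46 measured genes had a window, and of the interferon gamma list 15 of 21, which leaves 12 and 6 genes of these lists without one, so the check is void for them. The RefSeq windows are of GRCm38.p6 while the counts were made on GRCm39, so they place sequences and not reads. A match is a description of the letters and not a binding site.

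The median UMI count was 7739.5 in control and 8607 in Cre members, and their summed UMIs were 14106801 and 6595267. The whole libraries held 76570611 and 66845139 UMIs with medians of 6505 and 7332 per barcode. The 2 libraries shared 115 barcode sequences, 1 of them among members. No barcode was removed for it. Il10ra (ENSMUSG00000032089) was at 0 UMIs in control members, which allows up to 0.213 CPM (3 UMIs), and at 1 UMI in Cre members, 0.152 CPM. CPM are the UMIs of a gene per 1000000 UMIs, both summed over the cells of a population in a library. At these levels the counts do not check the deletion. Il10rb, which encodes the partner chain, had 46.9 CPM in control members and 73.5 CPM in Cre members, and Pdgfra had 228 and 262 CPM.

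The share of members among collagen-positive cells was 19.2% (18.4 to 20%) for the control library and 12.2% (11.4 to 13%) for the Cre library, by exact Clopper-Pearson intervals. The steps of the rule were read with all UMIs of each cell, at medians of 7367 UMIs in control and 8757 UMIs in Cre collagen-positive cells. Detection of Edil3 together with Frmpd4 took in a share of collagen-positive cells of 22.8% (21.9 to 23.7%) for control and 22.6% (21.5 to 23.7%) for Cre, so that before the last conditions the intervals overlapped. Of these doubly detected cells, the Cxcl13 condition left out 12.9% (265 cells) from the control library and 44.9% (596 cells) from the Cre library. The condition on Cd36, Hcar2, Agt and Tbxas1 left out 62 and 20, of which 6 and 4 were also among those left out for Cxcl13. Cxcl13 encodes a chemokine that attracts B cells, and its detection moved with the library. Read in this way, the shares parted at the Cxcl13 condition. The single steps are not given at equal depth, so where the shares part there was not tested. Edil3 alone was detected in 43.8% and 33.2%, and Frmpd4 in 28.0% and 29.5%, of collagen-positive cells.

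Depth bears on a rule that asks for single UMIs. With every cell thinned to 3000 UMIs before the rule, the shares were 11.8% and 9.19% of collagen-positive cells, and 1687 control and 984 Cre cells were too shallow to enter. Of all kept barcodes, members made up 15.7% (control) and 8.51% (Cre), beside collagen-positive shares of 81.6% and 69.9%. Shares of sorted cells also depend on the sort, so they are not shares of the tissue.

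**Figure D1:**
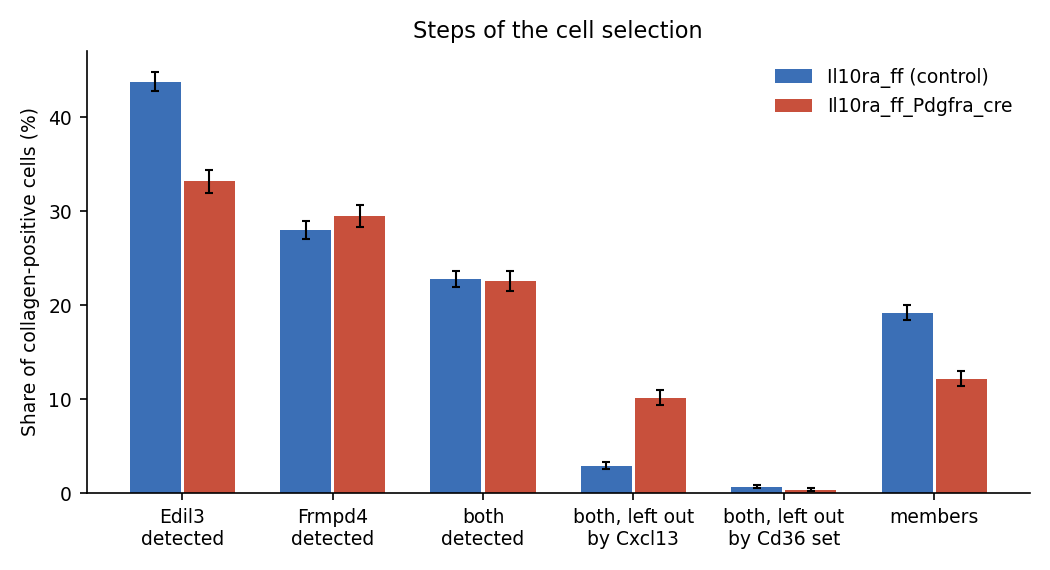
Share of collagen-positive cells (%, y axis) that passed or failed each step of the rule, for the control (blue) and the Cre library (red), with 95% Clopper-Pearson intervals as bars. With all UMIs of each cell, both genes were detected together in 22.8% and 22.6% of cells, and the libraries part at the Cxcl13 condition.

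The label of lamina propria fibroblast was set beside marker genes the rule did not use. Members and marker lists were chosen with earlier results of these data known, so the values are a description and no independent check. Sfrp2, a secreted WNT modulator, had 418 CPM in control members and 74.5 CPM in the other collagen-positive cells. In the Cre library it had 282 and 94.9 CPM. Members thus stood 5.61-fold (95% interval 5.39 to 5.84) above the other cells of the control library and 2.98-fold (95% interval 2.82 to 3.14) above those of the Cre library. Osr1, a transcription factor of embryonic mesenchyme, had 392 and 275 CPM in members against 179 and 129.6 CPM in the others. Apoe, a lipid carrier, had 952 and 455 CPM in members against 376 and 277 CPM. All 3 markers were detected together in 42.7% of control and 29.2% of Cre members, against 9.33% and 9.28% of the other cells. None of them was detected in 6.63% and 8.94% of members, against 33.4% and 34.6% of the others.

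Adamdec1, a metalloprotease used as a lamina propria marker, did not follow that order. It had 879 CPM in control members and 1344 CPM in the other control cells, but 2491 against 849 CPM in the Cre library. Its RNA was also present in 53.2% of 252 control and 53.3% of 135 Cre collagen-low cells with smooth muscle markers (median 4516 and 5431 UMIs). Osr1 was likewise detected in 55.6% and 62.2% of those cells and Apoe in 41.3% and 29.6%. In cells with glial markers (57 and 98 cells, median 4271 and 5148 UMIs), Apoe was detected in 94.7% and 95.9%. Sfrp2 was detected in 1.59% and 2.22% of the cells with smooth muscle markers and in 0 of those with glial markers. Fabp5, the last marker, was low everywhere, with 6.52 and 4.09 CPM in members. Tcf21, a transcription factor of fibroblast precursors, was abundant in members, with 1651 and 1494 CPM against 958 and 673 CPM in the others.

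Markers of other cell types were summed over each list. The 8 subepithelial fibroblast markers summed to 162 CPM in control and 131 CPM in Cre members, against 758 and 389 CPM in the others. The 8 adventitial or trophocyte markers summed to 1393 and 1726 CPM, against 1983 and 2873 CPM. In that list Pi16, a marker of adventitial fibroblasts, had 86.3 and 54.7 CPM in members against 572 and 492 CPM, whereas Grem1, a BMP antagonist, had 325 and 562 CPM against 135 and 374 CPM. The 5 smooth muscle markers summed to 116 and 58.1 CPM, the 5 glial markers to 2.69 and 9.25 CPM, the 5 leukocyte markers to 3.54 and 11.7 CPM, and the 4 epithelial markers to 3.05 and 1.06 CPM. Blood endothelial markers (4 genes) summed to more in members than in the others, at 49.5 and 46.9 CPM against 22.4 and 27.0 CPM. Only 1 of these 4 genes had a mean level of at least 10 CPM. Lymphatic markers (4 genes) had 14.9 and 4.55 CPM against 7.84 and 4.14 CPM. Pericyte markers (4 genes) summed to 47.4 and 77.0 CPM against 104 and 111 CPM, those of interstitial cells of Cajal (3 genes) to 35.9 and 27.0 CPM against 44.5 and 33.1 CPM, and mesothelial ones (4 genes) to 10.1 and 0.455 CPM against 29.3 and 21.9 CPM. Ptprc, which encodes CD45, and the epithelial genes Cdh1 and Krt20 had 0 UMIs in members, for which the upper limit is 0.213 CPM (control) and 0.455 CPM (Cre). Haemoglobin RNA came almost wholly from 1 Cre cell, which held 6767 of the 6798 haemoglobin UMIs of Cre members. The part of these other cell types in the results was not tested.

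How well the boundary of the rule separates cells depends on the marker read just inside and outside it. Control cells with exactly 1 Frmpd4 UMI (498 members) had Sfrp2 at 410.3 CPM, and otherwise eligible cells with 0 Frmpd4 UMIs (1414 cells) had 195 CPM. In the Cre library the values were 296 CPM (175 cells) and 106 CPM (458 cells). Control cells with 1 Edil3 UMI had 356 CPM and those with 0 had 229 CPM. In the Cre library these were 189 and 76.3 CPM. Across the Cxcl13 limit, control cells with 1 or 2 Cxcl13 UMIs had Sfrp2 at 240.1 CPM and those with 3 to 5 had 168 CPM. The 2 values were nearly the same in the Cre library, at 311 and 323 CPM. Across the collagen limit, cells with 10 to 14 collagen UMIs had 281 CPM and cells with 5 to 9 had 172 CPM in the control, against 309 and 156 CPM in the Cre library. Cells with 1 of the genes Cd36, Hcar2, Agt and Tbxas1 had 349 and 278 CPM, and cells with 2 had 245 and 194 CPM. Osr1 was higher inside than outside at the Frmpd4 and Edil3 limits in both libraries. At the collagen limit it had 271 and 260 CPM inside (control and Cre), against 345 and 277 CPM outside. Apoe there had 790 and 721 CPM inside, against 821 and 868 CPM outside. At the Frmpd4 limit Apoe had 957 CPM inside and 675 CPM outside in the control, but 400 and 432 CPM in the Cre library. At the Edil3 limit it had 716 and 696 CPM in the control, and 327 and 385 CPM in the Cre library.

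Against the other collagen-positive cells, 30 genes of the 8837 measured (0.339%) reached 2-fold upward in members in both libraries, and 97 (1.1%) downward. At 1.5-fold the counts were 143 (1.62%) and 186 (2.1%). Genes were measured when their mean level was at least 10 CPM. The rule selected on the same cells, so these counts describe the members and are no test. In the control library the highest ratio among the ranked genes was that of Sfrp2, given above. Cntn6, a contactin cell adhesion protein of axons, had 46.6 and 67.8 CPM in control and Cre members, against 10.8 and 17.3 CPM in the other cells. The ratio of members to others was 4.34-fold (95% interval 3.88 to 4.85) in control cells and 3.91-fold (95% interval 3.48 to 4.4) in Cre cells. Its relative Cntn1 had 33 and 82.2 CPM against 11.9 and 27.6 CPM.

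Fgf12, an intracellular fibroblast growth factor homologue that binds sodium channels, had 116 and 90.1 CPM in members against 32.3 and 23.6 CPM. Epha7, an ephrin receptor, had 53.9 and 59.6 CPM against 19 and 19.8 CPM. Myo16 (an unconventional myosin), St6galnac5 (a sialyltransferase of gangliosides), Shc3 (an adaptor of receptor tyrosine kinases) and Ano5 (a protein of the anoctamin family) stood between 2.84 and 3.63 times as high in members in the control library and between 3.14 and 3.49 times in the Cre library. Prdm6 and Prr16 were also among the 12 highest.

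Among the 12 highest genes was also Tnfsf13b, which encodes BAFF, a survival factor for B cells. It had 289 CPM in control and 325 CPM in Cre members, against 112 and 121 CPM in the other cells. It was detected in 83% and 82.7% of members and in 39.6% and 44% of the others. Its level in members was thus nearly the same in the 2 libraries, at 1.13-fold (95% interval 1.07 to 1.19) Cre over control.

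The lowest ratios belonged to genes of smooth muscle and of other fibroblasts. Wif1, a secreted WNT inhibitor, had 1.98 and 0.91 CPM in members against 28.9 and 24 CPM in the others. Fgf9, a ligand of FGF receptors, had 2.69 and 4.25 CPM against 34.2 and 43.9 CPM. Ackr4, a scavenger receptor for chemokines, had 6.24 and 12.9 CPM against 52.7 and 118 CPM, and Cilp, a cartilage matrix protein, 17 and 52.9 CPM against 145 and 403 CPM. Actg2 and Tagln, which encode smooth muscle actin gamma and transgelin, were 9.44 and 8.34 times as high in the others of the control library and 16.7 and 8.61 times in those of the Cre library. Tspan13 and Osr2 completed the 8 lowest.

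**Figure D2:**
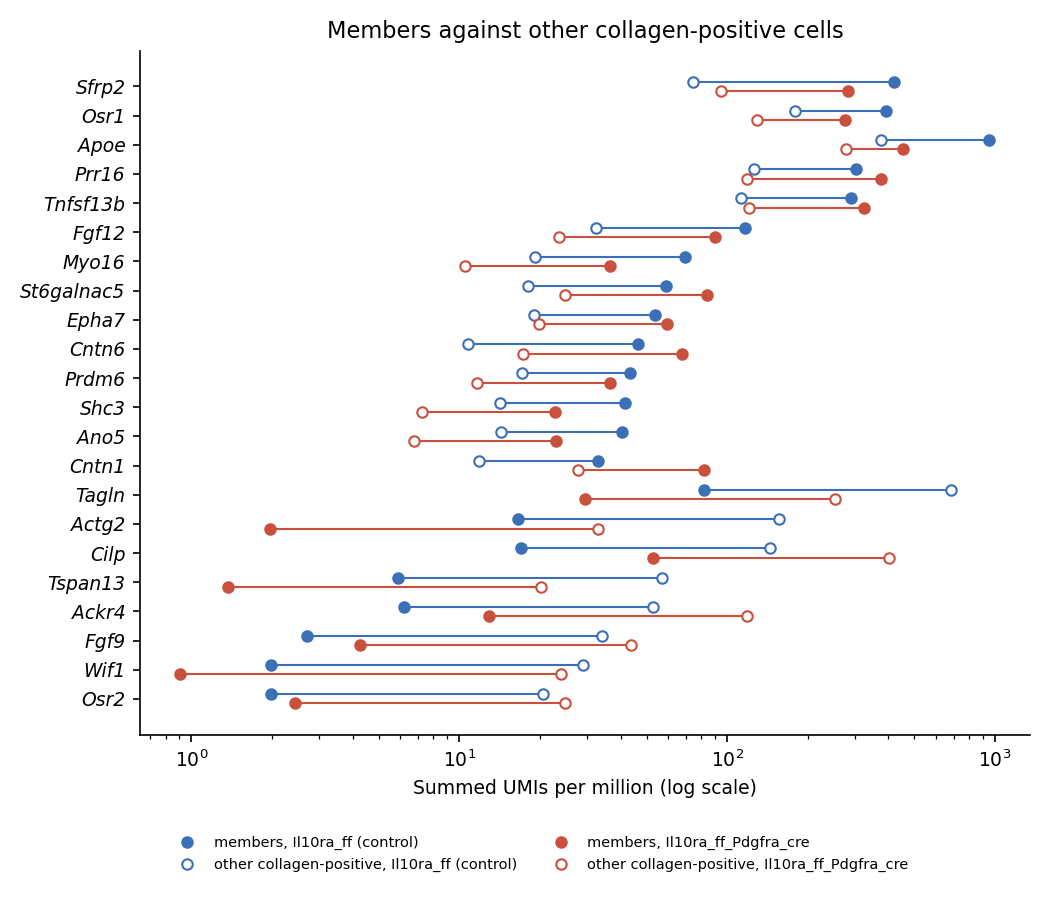
Summed UMIs per 1000000 (x axis, log scale) of 22 genes in members (filled) and other collagen-positive cells (open) of the control (blue) and the Cre library (red), with a line joining the 2 populations of a library. From Sfrp2 to Cntn1 the filled points lie to the right in both libraries, and from Tagln to Osr2 to the left.

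Between genotypes, 219 genes of the 9187 measured (2.38%) reached 2-fold upward in Cre over control members, and 64 (0.697%) downward. The median log2 ratio over all measured genes was 0.04. The highest ratios belonged to interferon, MHC class I, acute phase and chemokine genes. At a ratio of 1.5, the limit used for the gene lists below, 518 genes (5.64%) were higher and 255 (2.78%) lower.

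Of the type I interferon response list, 46 of 61 genes were measured. Of these, 38 passed 1.5-fold upward in Cre members and 0 downward, and the median log2 ratio was 1.08. A gene can be measured through its level in 1 library alone, so the count was also taken over the whole list: 49 of all 61 genes passed upward and 0 downward. Isg15 had 56 CPM in control and 141 CPM in Cre members, 2.51-fold (95% interval 2.28 to 2.76) higher, and was detected in 23% and 41.3% of cells. Thinned to 3000 UMIs, these shares were 10.6% and 24.9%. Ifit1, which binds viral RNA, had 7.66 and 36.1 CPM. The most abundant were Ifitm3, a membrane protein that blocks virus entry, with 1676 and 2935 CPM, and Ifi27l2a with 1212 and 2918 CPM. The list was not uniform: Ifit2 had 14.2 and 13.8 CPM, and Ifi27 43 and 30.3 CPM.

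The interferon gamma, GBP and IRG GTPase list had the larger median, 2.72 on the log2 scale, and 18 of 21 measured genes passed 1.5-fold upward and 0 downward (21 of all 28 upward). Iigp1, an immunity-related GTPase that acts on vacuoles of intracellular pathogens, had 43.9 CPM in control and 634 CPM in Cre members, 14.4-fold (95% interval 13.3 to 15.7) higher. Gbp5 had 6.03 and 75.8 CPM, and Gbp4, another guanylate-binding protein, 1.77 and 63.5 CPM. Cxcl9, a chemokine for T cells that is typical of interferon gamma, had 1.13 and 209.5 CPM, and Cxcl10, which shares its receptor, 73.7 and 574 CPM. The 3 measured genes below the limit were Irf1 (355 and 529 CPM), Socs1 (67.2 and 98.6 CPM) and Wars1 (18.4 and 24.9 CPM). Irf1 encodes a transcription factor and Socs1 an inhibitor of JAK signalling.

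Of the MHC class I and peptide loading list, 20 of 21 measured genes (23 of all 24) passed 1.5-fold upward in Cre members and 0 downward, at a median of 1.84. The light chain B2m had 707 CPM in control and 3122 CPM in Cre members, 4.41-fold (95% interval 4.31 to 4.52) higher. The heavy chains H2-D1 and H2-K1 had 806 and 476 CPM in control and 3654 and 2809 CPM in Cre members. H2-Q6 and H2-Q7 had 2.34 and 7.23 CPM in control and 304 and 425 CPM in Cre members. These 2 and H2-Q5 belong to a family of close paralogs, so the split of reads among its genes is uncertain. Psme2, a subunit of a proteasome activator, was the 1 measured gene under the limit, with 175 and 219 CPM.

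Summed over a list, interferon and MHC class I UMIs were higher in Cre members at each percentile given below, so the shift did not rest on a few cells. The type I sums include abundant genes such as Ifitm3 and Ifi27l2a. Single genes could be rarer, as Isg15 and Cxcl9 were each detected in a minority of Cre members. Thinned to 3000 UMIs, a control member carried a median of 18 UMIs of the type I list, with 10 to 30 between the 10th and 90th percentile. A Cre member carried a median of 30, with 15 to 59. The ranges overlap, and the median of Cre members equals the 90th percentile of control members. For MHC class I the medians were 9 (5 to 15) and 38 (14 to 69) UMIs, and the 25th percentile of Cre members, 23.25, lay above the 90th of control members. For the interferon gamma list the medians were 2 and 7 UMIs, and the 25th percentile of Cre members equalled the 75th of control members, at 3 UMIs. After thinning, 1683 control and 706 Cre members remained.

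In the other collagen-positive cells the medians were 17 and 28 UMIs for the type I list, 8 and 26 for MHC class I and 2 and 5 for interferon gamma. By log2 ratio, the type I list had a median of 1.0 in the others and 1.08 in members, the interferon gamma list 2.09 and 2.72, and MHC class I 1.66 and 1.84. Among the doubly detected cells left out for Cxcl13, these medians were 1.05, 2.31 and 1.65, and among those left out for Cd36, Hcar2, Agt and Tbxas1 0.70, 1.76 and 1.43. Over all measured genes the median was 0.04 in members and -0.06 in the others. The type I medians of members and others lie no further apart than these, so their order depends on the scaling. The difference between members and others in these lists was not tested. In the others, 384 genes of the 9070 measured (4.23%) reached 1.5-fold upward in Cre and 367 (4.05%) downward.

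**Figure D3:**
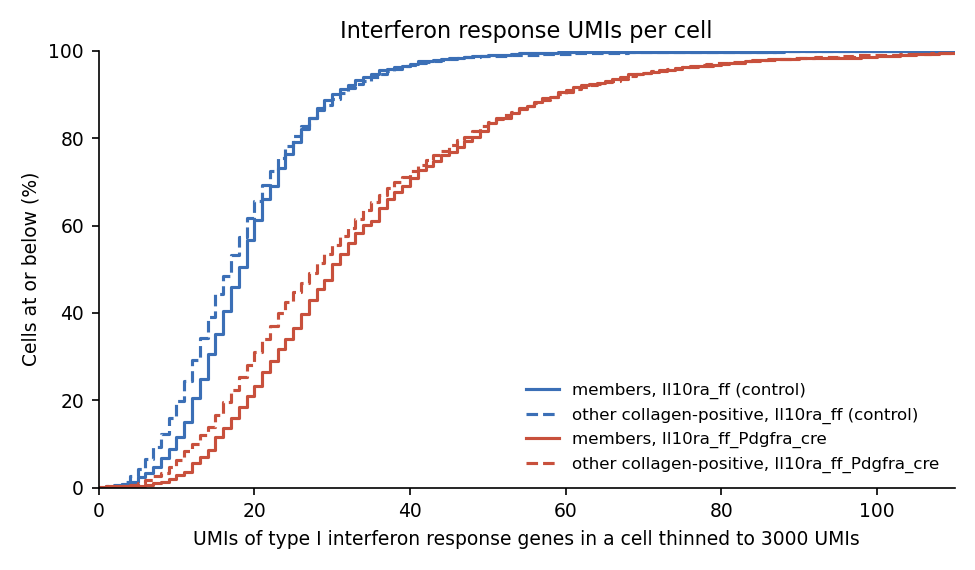
Cumulative share of cells (%, y axis) by the number of UMIs of type I interferon response genes in a cell thinned to 3000 UMIs (x axis), for members (solid) and other collagen-positive cells (dashed) of the control (blue) and the Cre library (red). The curves part by library, with medians of 18 and 30 UMIs in members and 17 and 28 in the others.

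Secreted chemokines and acute phase proteins differed by gene. In the chemokine and cytokine list, 10 of 17 measured genes passed 1.5-fold upward in Cre members and 0 downward, at a median of 0.76, and over all 26 genes 14 passed upward and 1 downward. The neutrophil chemokine Cxcl5 had 3.47 and 112 CPM, and the monocyte chemokines Ccl2 and Ccl7 had 78.7 and 43.4 CPM in control and 396 and 223 CPM in Cre members. The most abundant, Cxcl12, which retains leukocytes and their precursors in tissue, was 1.51-fold (95% interval 1.48 to 1.55) higher, from 1448 to 2189.8 CPM. Csf1, the growth factor of macrophages, was nearly the same, with 310.1 and 306 CPM, and so was Il7, with 24.6 and 21.1 CPM.

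The highest ratio of all ranked genes was that of Saa3, an acute phase apolipoprotein. It had 10 UMIs in control members and 1961 in Cre members, or 0.709 and 297 CPM. The serine protease inhibitor Serpina3n had 471 and 2235 CPM, 4.75-fold (95% interval 4.61 to 4.89) higher, and its relatives Serpina3g and Serpina3f had 29.8 and 0.425 CPM in control and 311 and 69.6 CPM in Cre members. In all, 11 of 20 measured genes of the NF-kappaB feedback and acute phase list (15 of all 25) passed 1.5-fold upward and 0 downward. The inhibitor Nfkbia, a direct NF-kappaB target, had 722 and 856 CPM, and the prostaglandin synthesis gene Ptgs2 222 and 191 CPM. The Serpina3, Gbp and Ifit families hold close paralogs, so values of single members carry an uncertain split of reads.

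Saa3 and Cxcl9 were carried by a minority of Cre members. Cxcl9 was detected in 6 of 1734 control and 131 of 716 Cre members, and Saa3 in 2 and 59. In the Cre library 37 members carried both, which is 28.2% of those with Cxcl9 and 62.7% of those with Saa3. In the control library 0 did. Cxcl10 was detected in 235 Cre members, and 87 of the 131 with Cxcl9 also had it. Outside fibroblasts, where free RNA can also give UMIs, Cxcl9 was found in 3 of 98 Cre cells with glial markers (median 5148 UMIs) and 3 of 135 with smooth muscle markers (median 5431 UMIs). Thinned to 3000 UMIs, Cxcl9 was present in 0.178% of control and 14.6% of Cre members, against 0.346% and 18.3% without thinning.

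Fibroblasts also secrete complement proteins. The limit was passed upward by 6 of 11 measured genes (7 of all 18) and downward by 0, at a median of 1.04, or 0.43 over the whole list. C3, the central component, had 260.1 CPM in control and 1559 CPM in Cre members, 5.99-fold (95% interval 5.77 to 6.22) higher, and was detected in 34.8% and 88.7% of cells. Cfb, which forms the convertase of the alternative pathway, had 42 and 323 CPM, and C4b 795 and 1637 CPM. C4b was also higher in members than in other cells, which had 295 and 954 CPM. The inhibitor Serping1 had 2198 and 3218 CPM, and the surface inhibitor Cd55 727 and 702 CPM.

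IL-10 receptor and STAT3 signalling genes had a median log2 ratio of 0.31 in members. Over all measured genes it was 0.04. For the same list in the others it was 0.06, beside -0.06 over all genes measured there. Only Il10rb of 10 measured genes passed the 1.5-fold limit, at 1.57-fold (95% interval 1.39 to 1.76). Stat3 had 388 and 489 CPM. Socs3, an inhibitor induced by STAT3, had 484 and 403 CPM, and Osmr, the oncostatin M receptor, 101 and 151 CPM, close to the 1.5-fold limit.

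**Figure D4:**
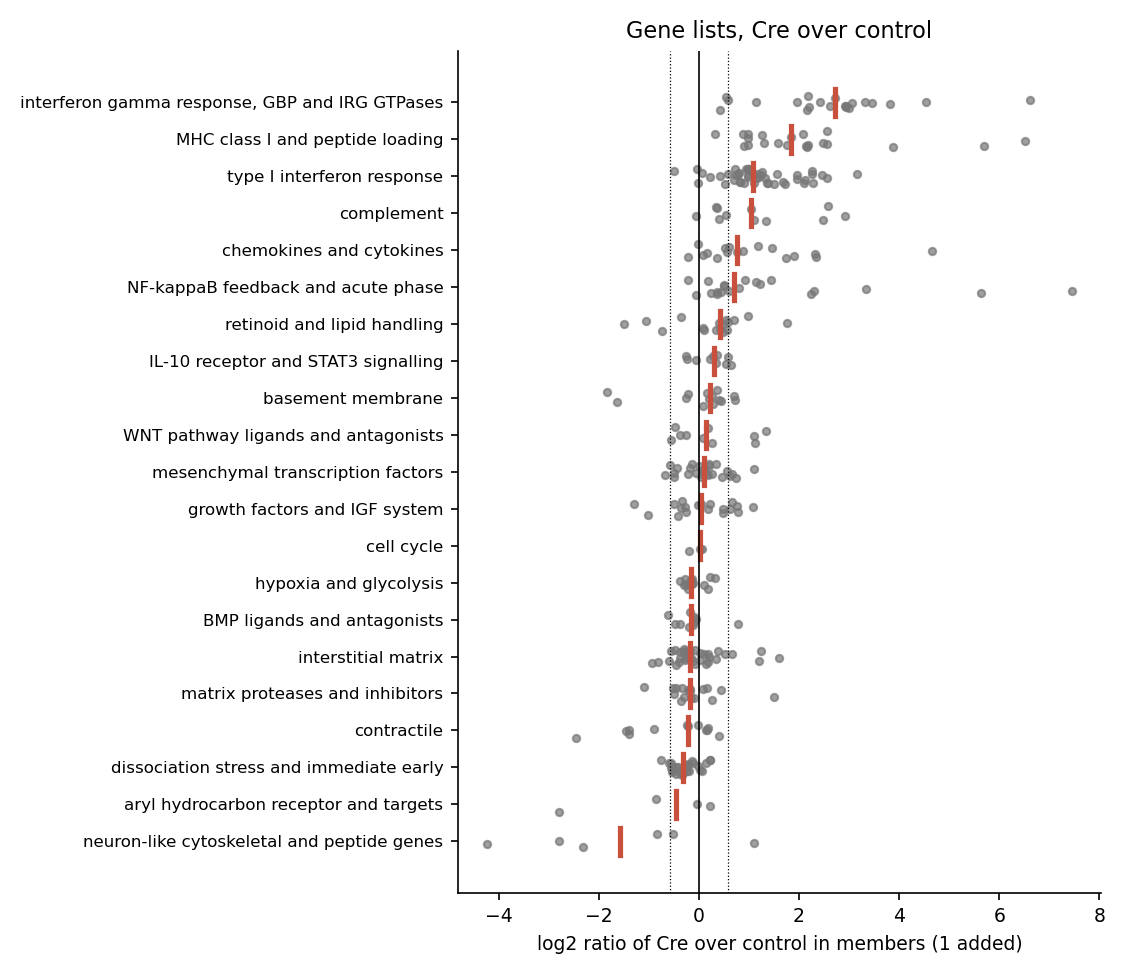
The log2 ratio of Cre over control CPM in members (x axis, 1 CPM added) for each measured gene (grey points) of 21 lists, with the list median as a red bar and dotted lines at 1.5-fold. The interferon gamma, MHC class I and type I lists have the highest medians, at 2.72, 1.84 and 1.08, and the neuron-like list the lowest, at -1.57.

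The list with the lowest median in Cre members was that of neuron-like cytoskeletal and peptide genes. It has 17 genes, of which 6 were measured: Stmn2, Tubb4a, Tubb2b and Cck passed 1.5-fold downward and Penk upward, at a median of -1.57. Over all 17 genes, with no minimum level, the median was 0. Stmn2, which encodes the microtubule regulator stathmin 2, had 515 CPM in control and 73.7 CPM in Cre members, 6.99-fold (95% interval 6.38 to 7.68) lower. It was detected in 67.9% of control and 18.3% of Cre members, and in 54.1% and 12% after thinning. In cells with glial markers it was found in 0 of 57 control and 0 of 98 Cre cells, which allows shares of up to 6.27% and 3.69% by the exact interval. It was detected in 12.3% of 252 control and 7.41% of 135 Cre cells with smooth muscle markers. Among cells with lymphatic endothelial markers it was detected in 8 of 37 control and 12 of 42 Cre cells (median 1632 and 2330 UMIs). Tubb4a and Tubb2b, tubulin genes, had 120.4 and 88.3 CPM in control and 23.5 and 49 CPM in Cre members. Cck, which encodes the peptide hormone cholecystokinin, had 60.5 and 2.27 CPM, 26.6-fold (95% interval 16 to 47.7) lower.

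Penk, the precursor of enkephalins, had 12.1 and 27 CPM, a ratio that turned to -0.75 on the log2 scale with cells thinned before the rule, and Map1b 38.5 and 26.4 CPM. Stmn2 was also lower in the other Cre cells, with 258 and 22.1 CPM. In the control library the doubly detected cells left out for Cxcl13 had Stmn2 at 189 CPM, below the 515 CPM of members. Control cells with 1 or 2 Cxcl13 UMIs had 369 CPM and those with 0 had 535 CPM. In the Cre library these 2 values were 33.7 and 90.2 CPM. The level of Stmn2 thus moved with Cxcl13 in both libraries, and its part in the difference between libraries was not tested.

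Among the 12 lowest ratios were also Aldh3a1, an aldehyde dehydrogenase induced by the aryl hydrocarbon receptor, with 44.7 and 5.61 CPM, and Ahr, the gene of that receptor, was at 24.5 and 13 CPM. The other 2 measured genes of that list, Arnt and Tiparp, had 77.7 and 132 CPM in control and 90.5 and 128 CPM in Cre members. Tppp3, a tubulin polymerisation protein found in progenitors of connective tissue, had 318 and 85.2 CPM. S100a4, a calcium-binding protein of fibroblasts, had 133 and 34.7 CPM, and Cav1, the coat protein of caveolae, 125 and 33.2 CPM. Plxdc1, Ccn3 and Cd109 were 5.66-fold, 4.2-fold and 3.46-fold lower.

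Interstitial matrix genes differed little as a group. Among 37 measured, 4 genes passed 1.5-fold upward (Lox, Tnc, Thbs2 and Thbs1) and 3 downward (Lum, Mfap5 and Eln), at a median log2 ratio of -0.17. Lum, which encodes the proteoglycan lumican, had 1720.0 and 896 CPM, 1.92-fold (95% interval 1.87 to 1.98) lower, while it was at 1354 and 1827 CPM in the others. Lox, the enzyme that cross-links collagen, had 24.5 and 76.7 CPM, and Tnc, the matrix protein tenascin C, 42.4 and 101 CPM. The proteoglycan Dcn, the most abundant of the list, had 10763 and 8319 CPM. Per cell thinned to 3000 UMIs, matrix genes made up a median of 98 UMIs in control and 81 in Cre members, and 95 and 92 in the others.

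Basement membrane genes split. Col4a5 and Col4a6, which encode 2 chains of 1 type IV collagen network, had 50.9 and 29.3 CPM in control and 15.8 and 7.43 CPM in Cre members. Col18a1 and Nid2 were at least 1.5-fold higher, with 131 and 8.29 CPM in control and 216 and 14.3 CPM in Cre members. Col4a1, of the common type IV network, had 457 and 617 CPM. Of 17 measured protease and inhibitor genes, Adamdec1 passed the limit upward at 2.84-fold (95% interval 2.77 to 2.9) and Plat, the tissue plasminogen activator, downward, from 84.1 to 39 CPM.

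In the contractile list, 5 of 12 measured genes, Acta2, Tagln, Myh11, Tpm2 and Myl9, passed 1.5-fold downward and 0 upward. Cald1, the actin-binding protein caldesmon and the most abundant of the list, had 472 and 521 CPM, and Actn1, an alpha-actinin, 57.8 and 76.3 CPM. The list summed to 1675 CPM in control and 1379 CPM in Cre members. Myh11, smooth muscle myosin, had 48.3 CPM in 4.04% of control and 8.04 CPM in 1.82% of Cre members. In the other cells the list median was -1.50, against -0.23 in members, and Myh11 had 336 and 81.4 CPM. Smooth muscle markers thus differed between the libraries outside the members too, and their part in the contractile values was not tested. With cells thinned before the rule, the log2 ratios of Myh11 and Tagln turned to 1.0 and 0.29 and the list median to 0.31.

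Ligands that fibroblasts give to the epithelium were mixed. Of 10 measured WNT pathway genes, Rspo3, Frzb and Sfrp1 passed 1.5-fold upward and 0 downward. Rspo3, which amplifies WNT signals at the crypt base, had 17.6 and 45.8 CPM, and the WNT modulator Sfrp1 318 and 681 CPM. Sfrp2 had 418 and 282 CPM. Of 10 measured BMP genes, the antagonist Grem1 was higher, at 1.73-fold (95% interval 1.66 to 1.81), and Bmp2 lower, from 59 to 37.9 CPM, while the most abundant ligand Bmp4 had 709 and 662 CPM. Among 19 growth factor and IGF genes, Ereg, Nrg1, Fgf10, Fgf7 and Igf1 were at least 1.5-fold higher and Hbegf and Igfbp6 lower. The log2 ratio of Nrg1, 0.77, turned to -0.27 with either Edil3 or Frmpd4 detected and to -0.11 without the conditions on Cxcl13 and the Cd36 group. Ereg, the EGF receptor ligand epiregulin, had 114 and 240.3 CPM, and Hbegf, another ligand of that receptor, 96.7 and 38.5 CPM. Igfbp6, which binds insulin-like growth factors, had 490.1 and 242 CPM.

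Of 17 measured retinoid and lipid genes, 3 passed 1.5-fold upward, Lpl and Aldh1a3 among them, and Rbp4, Apoe and Aldh1a2 passed downward. Lpl, the lipoprotein lipase, had 91.1 and 309.6 CPM, 3.4-fold (95% interval 3.17 to 3.65) higher, and Rbp4, the carrier of retinol, 132 and 45.9 CPM. Aldh1a3, which makes retinoic acid, had 44.8 and 88.9 CPM. Of 26 measured transcription factors, Hand2, Tbx2, Runx1 and Nr2f1 were at least 1.5-fold higher and Twist1 lower, and Zeb2, the most abundant with Tcf21, had 717 and 863 CPM.

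Lists read for the state of the cells showed small shifts. Of 27 genes of dissociation stress and immediate early response, Dusp1 and Klf4 passed 1.5-fold downward and 0 upward, at a median of -0.33 in members and 0.02 in the others. Fos, the immediate early transcription factor, had 6446 and 4358 CPM. The part of this shift in the other results was not tested. None of 14 hypoxia and glycolysis genes and none of 3 measured cell cycle genes passed the limit, with 0 higher and 0 lower in each. Pcna, a DNA replication clamp, had 86.5 and 75.5 CPM.

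The ratio of Cre over control itself was set against that of the other collagen-positive cells. It was at least 1.5-fold higher in members for 471 of 8824 genes (5.34%) and lower for 165 (1.87%). With TMM scaling of the 4 sums, which sets typical genes equal, these counts became 315 and 281, so that the excess of higher genes depends on the scaling. The make-up of the others also differed between the libraries: cells with 3 or more Cxcl13 UMIs made up 8.07% of them for the control and 19.9% for Cre, and cells with at least 2 of Cd36, Hcar2, Agt and Tbxas1 were 10.9% and 1.59%. These differences were not tested.

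Cxcl9 had the largest difference among the ranked genes, with a log2 ratio of 6.62 in members and 3.08 in the others. In control cells Cxcl9 was lower in members (1.13 CPM) than in the others (7.64 CPM), and in Cre cells it was higher (209.5 and 72.1 CPM). For Saa3 the log2 ratios were 7.45 and 4.70. Cxcl14, a chemokine of barrier tissues, had 23.9 and 91.3 CPM in members but 156 and 121 CPM in the others. Ereg had 114 and 240.3 CPM in members but 218 and 89.9 CPM in the others. In the opposite direction, Cd81, a tetraspanin used as a trophocyte marker, had 123 and 61.9 CPM in members but 252 and 432 CPM in the others. The trypsin-like protease gene Prss23 had 192 and 107 CPM against 407 and 619.8 CPM. With either Edil3 or Frmpd4 detected in place of both, the ratios of Cd81 and Prss23 in the cells chosen turned to 0.46 and 0.19 on the log2 scale.

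**Figure D5:**
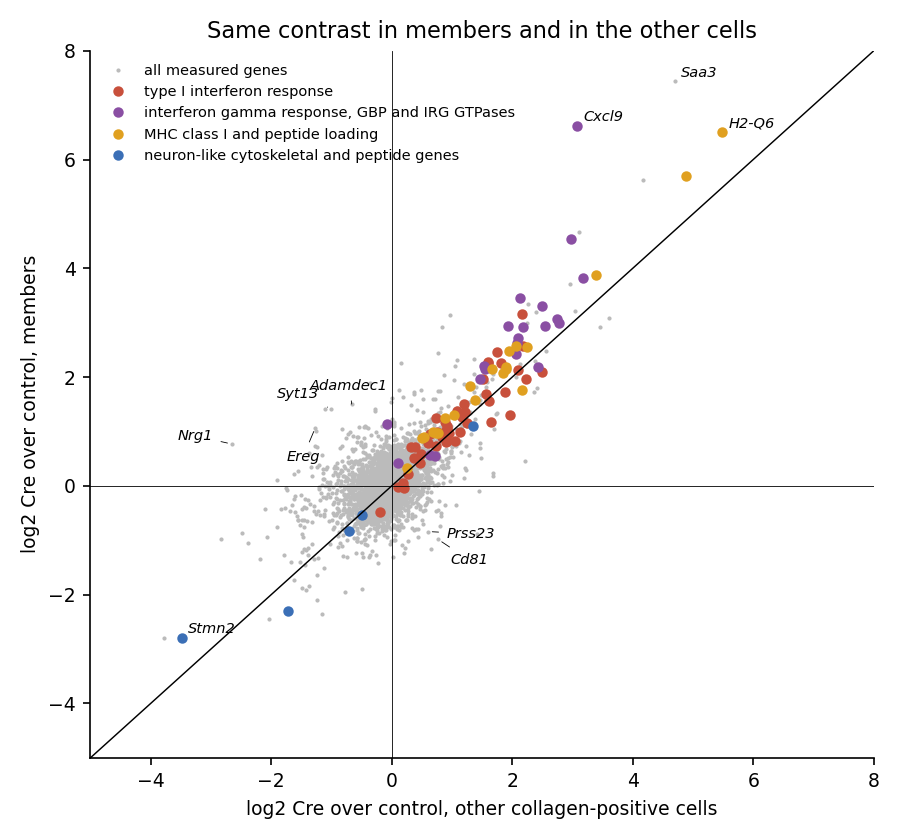
The log2 ratio of Cre over control in other collagen-positive cells (x axis) and in members (y axis) for all measured genes (grey) and 4 lists (coloured), with a line at equal ratios. Most interferon and MHC class I genes lie near or above the line, and among the labelled genes Cxcl9 (3.08 and 6.62), Nrg1 (-2.66 and 0.77, the latter turning to -0.27 with either rule gene detected) and Saa3 (4.70 and 7.45) lie farthest above it.

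Among members of 1 library, genes varied beyond counting noise to different degrees. At 3000 UMIs per cell, the variance over mean of UMIs had a median of 1.06 in control and 1.08 in Cre members over 4297 genes, where 1 is the value for counting noise. Adamdec1 reached 9.17 and 12.9, Mgp, a matrix protein that binds calcium and BMPs, 8.36 and 8.76, and Fos 8.90 and 10.3. The other 5 of the 8 most variable genes were Cmss1, Lars2, Gphn, Camk1d and Malat1, with values from 11.1 to 58.2 in control and from 10.2 to 56.8 in Cre members. Malat1 is a nuclear RNA, and each of these 5 had 1961 CPM or more in control members. The source of their variance was not tested.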

How the data were processed

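The authors deposited raw UMI counts of 33696 features in each barcode, 1 matrix per library. Counts were made with Cell Ranger 8.0.1 on GRCm39, per the submitters' processing notes, from 10x 5' libraries, per the labels' protocols. Barcodes under 500 genes or above 10% mitochondrial UMIs were dropped, members were taken by the rule given in the report, and doublets were not removed in the main values (Scrublet in scanpy 1.11.5 was an alternative, at an expected rate of 8%). For 26 rows that repeat a symbol the first row was used.

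UMIs were summed per library and population and scaled to CPM. Log2 ratios had 1 CPM added, and a gene counted as measured from 10 CPM on average. Intervals of ratios of sums are exact binomial and those of shares Clopper-Pearson, at 95%, for counting error only; limits for 0 UMIs take 3 UMIs. No p-value was computed, since each genotype had 1 library. Per-cell values used cells thinned to 3000 UMIs. The 10 rule genes were left out of counts and rankings. Cells with glial or smooth muscle markers had at least 2 of that list's markers and collagen UMIs under 10. TMM factors came from edgeR 4.0.16, used for scaling only. The ratio, interval and thinning steps were tested on simulated counts.

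Named genes were the rule and marker genes, the 12 highest and 8 lowest genes against other cells, the 12 highest and 12 lowest ratios of Cre over control (from 20 CPM in either library and 50 UMIs over both), 2 highest, 2 lowest and 2 most abundant genes of each of 21 lists, 5 genes per direction by the difference of ratios, and 8 by variance over mean. Not ranked were genes with Gm-number, Rik or ENSMUSG names and mitochondrial, ribosomal protein, antigen receptor, haemoglobin and sex-linked genes. Isg15, Ifit1, Cxcl10, H2-K1, Ccl2 and genes that spell out a count of 5 or fewer were named after their values were seen. The members and lists were chosen with earlier results of these data known. Some genes are not reported here by name, though list counts and medians include them.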

Additional observations from a re-analysis of the deposited data

Results flagged for a closer look

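For 9 of the genes ranked by their difference of ratios or named from the lists, Cre members differed from control members in one direction and the other collagen-positive cells in the opposite one, by at least 1.5-fold in each. Some of these genes were ranked by that difference, so opposite directions are partly built into the choice. The share of all measured genes that moved in this way is not given, so the count of 9 has no background beside it. The make-up of the others also differed between the libraries. Cells with at least 2 of Cd36, Hcar2, Agt and Tbxas1 were 10.9% of them in the control and 1.59% in Cre. The part of this make-up in the 9 differences was not tested, and with 1 library per genotype neither were the differences.

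Higher in Cre members but lower in the other Cre cells were Nrg1, Syt13, Ereg, Adamdec1 and Tbx2. Nrg1, a ligand of ERBB receptors that marks subepithelial fibroblasts, had a difference of log2 ratios of 3.43 (members minus others), with 7.58 and 13.6 CPM in members and 133 and 20.2 CPM in the others. Its ratio in members turned to -0.27 with either Edil3 or Frmpd4 detected in place of both, and to -0.11 without the conditions on Cxcl13 and the Cd36 group. Syt13, a synaptotagmin, had 2.42, with 17.2 and 47.5 CPM in members. Ereg had 2.34 and Adamdec1 2.17. Tbx2, a T-box transcription factor, had 1.56, with 23.1 and 39.3 CPM in members and 33.5 and 18.5 CPM in the others.

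Lower in Cre members but higher in the other Cre cells were Prlr, Plcb4, Cd81 and Prss23. Prlr, the prolactin receptor, had a difference of -2.29, with 20.4 and 10.6 CPM in members and 13.6 and 37.7 CPM in the others. Plcb4, a phospholipase C, had -1.82, with 33.7 and 14.6 CPM against 35.1 and 56 CPM. Cd81 had -1.76 and Prss23 -1.44. With either Edil3 or Frmpd4 detected in place of both, the log2 ratios of Prlr, Cd81 and Prss23 in the cells chosen turned to 0.68, 0.46 and 0.19.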

How the results depend on the processing

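The member share depended on the rule. In control and Cre cells it was 11.6% and 7.77% with at least 2 UMIs of Edil3 and of Frmpd4, 39.4% and 25.3% with either gene detected, 20.7% and 14% with a collagen sum of 30 or more, 13.5% and 6.80% with Cxcl13 at 0 and none of Cd36, Hcar2, Agt and Tbxas1, 22.8% and 22.6% without that last condition, and 11.8% and 9.19% with cells thinned before the rule. Every setting gave the lower share in the Cre library, and without the Cxcl13 and Cd36 conditions the difference lay within counting error. Genes 2-fold higher and lower in Cre members numbered 354 and 139 with thinned cells, 474 and 247 with no minimum level and 89 and 26 with at least 50 CPM, and 34 were lower with 10 CPM added. Genes 2-fold higher in members than in others numbered 51 without the Cxcl13 and Cd36 conditions, 51 with thinned cells, 16 with 10 CPM added, 48 with no minimum and 12 at 50 CPM, and those lower 291 with no minimum and 36 at 50 CPM. Ratios at least 1.5-fold higher and lower in members than in others numbered 966 and 499 with thinned cells, 301 and 103 with 10 CPM added, 1681 and 803 with no minimum and 158 and 59 at 50 CPM. The lower ones numbered 98 with either gene detected and 281 with TMM scaling. At 50 CPM 12 of 15 type I genes and 7 of 15 NF-kappaB and acute phase genes were 1.5-fold higher, since fewer genes were tested.

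Over 14 alternatives the list medians ranged from 0.84 to 1.24 for type I interferon, 1.91 to 2.94 for interferon gamma and 1.62 to 2.11 for MHC class I. That of the neuron-like list ran from -2.31 to 0 and that of the contractile list from -0.89 to 0.31. With either gene detected, the log2 ratio of Cre over control in members turned to 0.46 for Cd81, 0.68 for Prlr, 0.19 for Prss23 and -0.27 for Nrg1, and without the Cxcl13 and Cd36 conditions to -0.11 for Nrg1. With thinned cells it turned to 1.0 for Myh11, 0.29 for Tagln and -0.75 for Penk. The cause was not tested. Leaving out members with any of 11 blood genes (3.17% and 11%), added after seeing the data, or Scrublet calls (85 and 18 members) moved no count past 1.5-fold. No library could be left out and no paired analysis was possible because each genotype had 1 library. Depth limits genes near 1 UMI, such as Il10ra.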
